A study of Caenorhabditis elegans with 48 samples.

Results

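Transcripts of 8 aspartic protease genes, asp-1, asp-2, asp-3, asp-4, asp-5, asp-6, asp-13 and asp-14, were followed through a heat shock experiment in Caenorhabditis elegans. They are 8 of the 17 genes that the annotation names asp with a number, and 8 of the 13129 genes listed in at least 1 of the 4 expression tables. The genes were chosen by name, by their listing in all 4 tables, which list genes that are read in these worms, and with the fall of asp-13 in heated worms on ethanol plates already known. Heat responses on ethanol plates are therefore given as a description. Tests are given for heat on auxin plates, whose fold changes come from other libraries, and for auxin against ethanol plates. The genes and the lists set beside them were chosen with earlier results of these data known. The tests and list counts may therefore not be free of that choice. In each strain all 12 libraries share 1 estimate of the spread. Standard errors and p-values on auxin thus also rest on the ethanol libraries.

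The study measured polyA RNA of whole young adult worms in 48 libraries, 3 replicates in each of 16 groups. JTL611 carries hsf-1::aid::gfp, heat shock factor HSF-1 with a degron that auxin activates, beside a transgene that makes the plant F-box protein TIR1, fused to mRuby, from the eft-3 promoter (ieSi57 on chromosome II), active in the soma. Its control CA1200 carries ieSi57 without the degron tag. JTL621 carries the tagged hsf-1 beside TIR1 from the sun-1 promoter (ieSi38 on chromosome IV), active in the germline, and its control CA1199 carries ieSi38 alone. All 4 strains carry unc-119(ed3) on chromosome III and the Cbr-unc-119(+) copy that came with each TIR1::mRuby transgene. HSF-1 protein was not measured here. Larvae were grown for 51 h and spent 2 h on auxin plates, or on plates with ethanol, in which auxin is usually dissolved. They were then heat shocked at 34 °C for 30 min in a water bath, or collected directly, so that heated worms were also 30 min longer on the plate, and heat and this added time cannot be told apart. Each strain thus has 4 groups: auxin with heat shock, auxin unheated, ethanol with heat shock and ethanol unheated.

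Aspartic proteases of the pepsin and cathepsin D family use a pair of aspartate residues to cut proteins, mostly in acidic compartments. In worms they work in the lysosome and in the intestine, a tissue that both digests food and stores nutrients in lysosome-related granules. ASP-3 and ASP-4 are known as lysosomal executioners of necrotic neuron death, where calcium-activated calpains act before them and acidification by the vacuolar proton pump helps them. HSF-1 is the main activator of heat shock genes.

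The heat shock gene hsp-70 served as a check of the labels. On auxin plates this chaperone gene, which heat induces through HSF-1, was higher in heated worms by 9.20 log2 units in CA1200, by 9.31 in CA1199 and by 8.87 in JTL621. In JTL611 it was higher by 1.04 log2 units on auxin and by 7.92 on ethanol plates. CPM is a gene's reads scaled by a library size that carries the authors' normalisation, not a plain share of a library. A total of 3 reads, the most that a count of 0 allows, corresponded to 0.127 to 0.478 CPM. The libraries held 9000611 to 24025791 reads on listed genes (median 16986626). Ribosomal RNA genes took 3.89 to 34.5% of these reads (median 8.26%), with the highest share in the library of heated JTL621 worms on auxin with replicate number 2.

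At baseline the genes differed widely in level. In unheated worms on ethanol plates asp-1, an aspartic protease of the intestine, was the most abundant per kilobase of exon, with means between 2040.3 CPM per kb in CA1200 and 2517 CPM per kb in JTL621. In CA1200 it was followed by asp-6 with 728 CPM per kb, asp-3 with 685, asp-5 with 429.8, asp-2 with 425, asp-4 with 137, asp-13 with 129 and asp-14 with 16.97. Replicates overlapped between asp-6 and asp-3, between asp-5 and asp-2, and between asp-13 and asp-4 in every strain, so the order within these pairs did not exceed the spread. Between asp-3 and asp-5 they also overlapped in CA1199 and JTL621. asp-14 was the lowest in every strain, without overlap with the gene above it.

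The annotation of WBcel235 places asp-1 (WBGene00000214) on chromosome V at 19049562 to 19050752 on the minus strand, in a stretch that also holds asp-17, asp-16 and asp-15 on that strand, with 4708 bases between asp-15 and asp-1. asp-6 (WBGene00000219, V, 8267511 to 8268937, minus strand), asp-12 and asp-5 (WBGene00000218, V, 8272385 to 8274044, plus strand) stand next to each other, 272 and 328 bases apart. asp-2 (WBGene00000215, V, 9203077 to 9204734, plus strand) overlaps inx-10 on the opposite strand by 74 bases. asp-13 (WBGene00017881) lies on V at 8641602 to 8643193, minus strand. On chromosome X are asp-3 (WBGene00000216, 6791064 to 6792709, plus strand), asp-4 (WBGene00000217, 13218985 to 13221462, minus strand) and asp-14 (WBGene00019619, 6444185 to 6446664, minus strand), and asp-4 overlaps R12H7.4 on the opposite strand by 33 bases. Counts are sums over whole genes. Whether reads that match several asp genes were counted, and whether counting used strand, is not given in the sources used here, so reads at the overlaps and between close family members are uncertain.

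**Figure D1:**
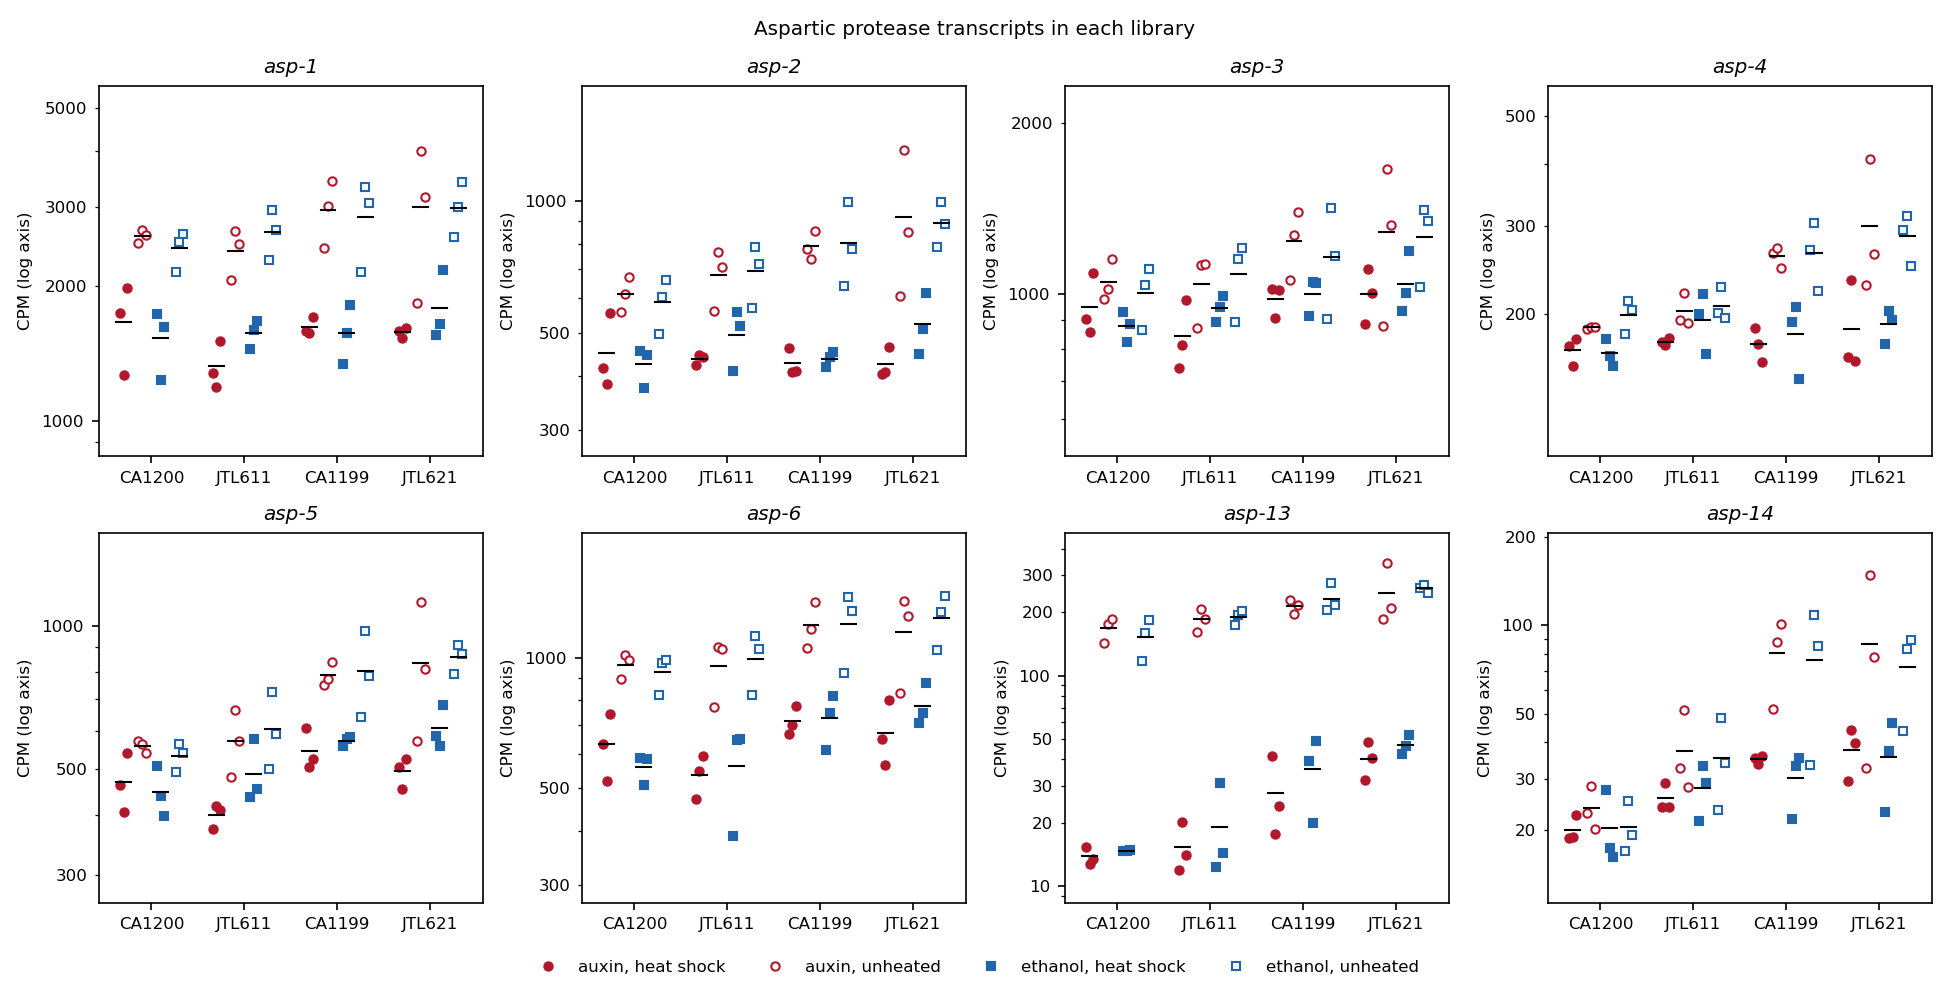
Level of each aspartic protease transcript in CPM (log axis, own range for each gene) in each of the 48 libraries, by strain. Points are libraries, filled for heat shock and open for unheated worms, red circles for auxin and blue squares for ethanol plates, and black bars are means of 3. In asp-13 all filled points lie between 11.9 and 52.1 CPM, below all open points at 117 to 341 CPM.

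Heat shock lowered part of the family in all 4 strains, and asp-13 by far the most. On auxin plates asp-1, asp-2, asp-6 and asp-13 fell in all 4 strains, asp-4 and asp-5 in CA1199 and JTL621, and asp-14 in CA1199, while asp-3 was called in no strain. All 8 genes passed the filter on low values in every strain, and all 8 had fold changes below 0 in every strain. The genes called lower on auxin plates numbered 4 of 8 in CA1200, where 9.86% of the 11878 genes tested were called lower. They numbered 4 of 8 in JTL611, where 5.4% of 12010 genes were called lower. In CA1199 they were 7 of 8 beside 12.5% of 12184 genes, and in JTL621 6 of 8 beside 11.3% of 12228 genes. None of the 8 was called higher. Their median log2 fold change was -0.36 in CA1200 and -0.56 in JTL611. It was -0.79 in CA1199 and -0.80 in JTL621, and the median over all genes tested lay between -0.01 and 0.01. A call here is an adjusted p under 0.05 in limma, a moderated linear model over all genes, on log2(CPM + 1).

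In the JTL611 worms, libraries with the same replicate number deviated together, and with the replicate number as a block 6 of the 8 genes were called on auxin plates, asp-3 (adjusted p = 0.0351) and asp-5 (adjusted p = 0.00187) being added. With quantile normalisation asp-3 was called on auxin in CA1199 (adjusted p = 0.0437) and JTL621 (adjusted p = 0.0475), and asp-4 (adjusted p = 0.0168) and asp-5 (adjusted p = 0.0213) in CA1200. Single libraries moved the counts. In JTL611 the count on auxin was 2 without any 1 of heat-shocked replicates 1, 2 and 3 or unheated replicates 2 and 3, and 5 without unheated replicate 1. In JTL621 it was 3 without heat-shocked replicate 2, 2 without unheated replicate 2 or 3, and 8 without unheated replicate 1.

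On ethanol plates, whose asp-13 values were known when the genes were chosen, the counts below the same threshold were 5 of 8 in CA1200 (7.51% of genes called lower), 3 of 8 in JTL611 (4.17%), 7 of 8 in CA1199 (14.4%) and 3 of 8 in JTL621 (7.43%). Their median log2 fold change ran over -0.36 (CA1200), -0.39 (JTL611), -0.77 (CA1199) and -0.71 (JTL621). These counts rest on values that were known at the choice of genes, so they are a description and nothing is read from them.

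Summed over the 8 genes, the level on auxin plates was 4369.5 ± 755 CPM in heated and 6157 ± 265 CPM in unheated CA1200 worms (SD, n = 3 each, as in the sums that follow). It was 3761 ± 339 CPM in heated and 6078 ± 838 CPM in unheated JTL611 worms. In CA1199 the sum was 4526 ± 182 CPM with heat shock and 7524 ± 898 CPM without. In JTL621 it was 4433 ± 197 CPM with heat shock and 7822 ± 2585 CPM without. CPM values are relative levels in the polyA RNA of whole worms, after the authors' normalisation. Fewer cells of a type and less RNA per cell therefore cannot be told apart.

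asp-13, a predicted pepsin-family protease, had 15.2, 12.7 and 13.5 CPM in heated CA1200 worms on auxin, against 144, 176 and 186 CPM in unheated ones. In JTL611 on auxin it had 11.9, 20.2 and 14.1 CPM with heat shock, against 162, 208 and 185 CPM without. In both strains with TIR1 in the soma the heated libraries on auxin thus lay between 11.9 and 20.2 CPM. In CA1199 on auxin the heated worms had 41.3, 17.6 and 24.0 CPM, against 229, 197 and 218 CPM in unheated worms. In JTL621 on auxin the heated worms had 31.8, 48.5 and 40.5 CPM, against 186, 341 and 209 CPM in unheated worms. In each strain every heated library was below every unheated one. asp-13 fell to 8.19% of its unheated mean in CA1200 and 8.31% in JTL611, with 12.9% in CA1199 and 16.38% in JTL621.

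On the log2 scale these falls of asp-13 were -3.51 in CA1200 (SE 0.14, adjusted p = 6.36e-10), -3.53 in JTL611 (SE 0.27, adjusted p = 1.04e-05), -2.996 in CA1199 (SE 0.30, adjusted p = 1.4e-05) and -2.55 in JTL621 (SE 0.20, adjusted p = 2.65e-06). In all 4 strains asp-13 had the lowest log2 fold change of all genes tested on auxin plates. Without any 1 library the log2 fold change lay between -3.73 and -2.29 and the call was kept. Strains were not compared by a test, since their tables were normalised separately.

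On ethanol plates asp-13 had 14.7, 14.7 and 14.8 CPM in heated CA1200 worms, against 117, 159 and 184 CPM in unheated ones. In JTL611 the heated libraries had 12.3, 30.9 and 14.3 CPM, against 173, 193 and 203 CPM in the unheated ones. The second heated library of JTL611 stood above the other two, and still far below the unheated libraries. In CA1199 the values were 39.1, 19.8 and 48.7 CPM with heat shock, against 204, 276 and 217 CPM without. In JTL621 they were 42.2, 46.4 and 52.1 CPM with heat shock, against 261, 271 and 248 CPM without. The heated mean was 9.62% of the unheated mean in CA1200 and 10.1% in JTL611, with 15.5% in CA1199 and 18.1% in JTL621. Its log2 fold change ranked lowest of all genes in CA1200, JTL611 and CA1199 and was the lowest but one in JTL621. That fall on ethanol was known when the genes were chosen, so these ranks are a description only.

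The nearest listed gene beside asp-13, F28A12.3, was not called on auxin plates in any strain. Its log2 fold changes were -0.27 in CA1200 and 0.07 in JTL611, with -0.52 in CA1199 and -0.25 in JTL621.

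**Figure D2:**
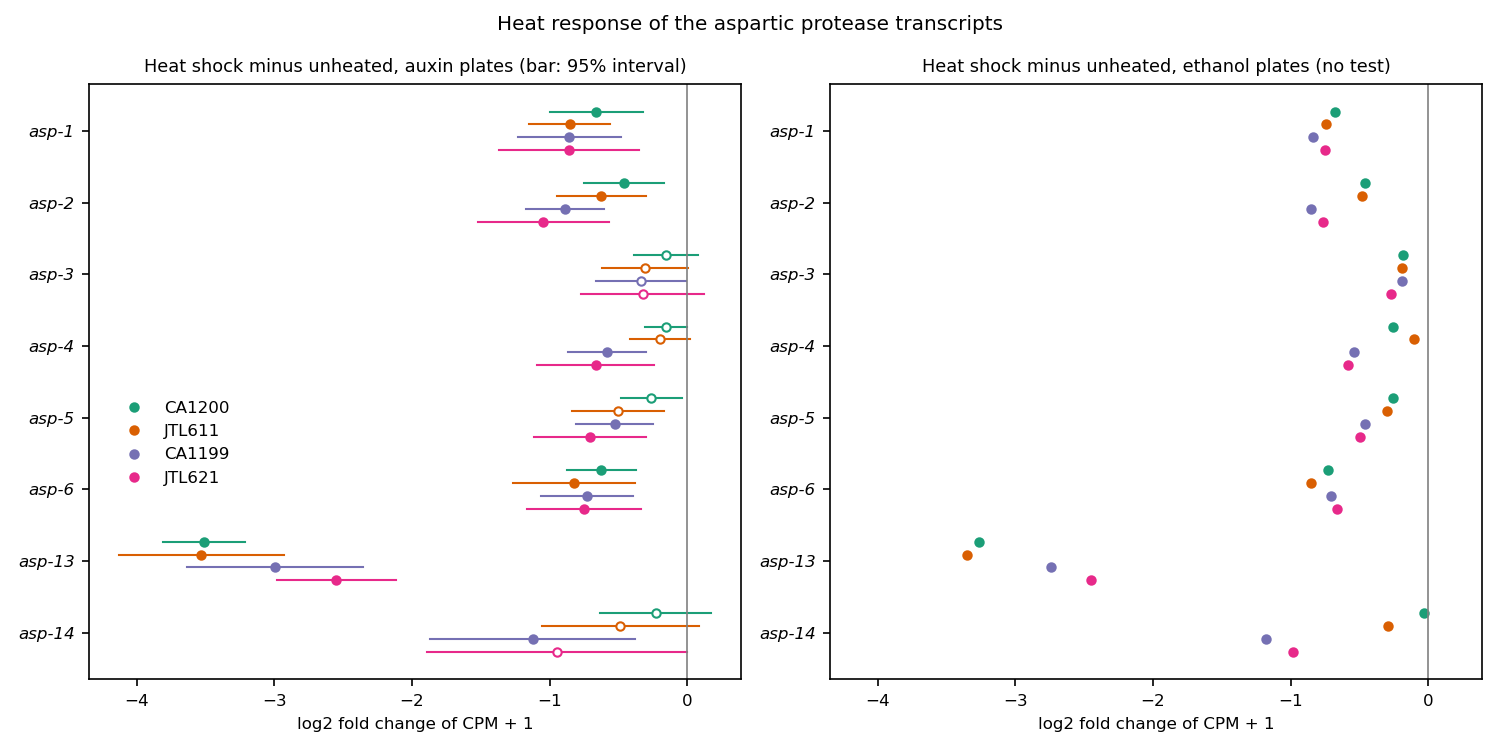
Log2 fold change of CPM + 1, heat shock minus unheated, for the 8 genes (rows) in 4 strains (colours), on auxin plates at left with 95% intervals of the limma fit and on ethanol plates at right without a test. Filled points at left have an adjusted p under 0.05. asp-13 lies between -3.53 and -2.55 on auxin plates, and the other genes between -1.12 and -0.15.

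asp-3, asp-4 and asp-1 are the members with a known part in necrotic death. asp-1 mediates the necrosis of intestinal cells that the bacterial toxin Cry6A triggers. On auxin it had 1744, 1265 and 1987 CPM in heated CA1200 worms, against 2497, 2665 and 2604 CPM in unheated ones. In JTL611 it had 1282, 1194 and 1507 CPM with heat shock, against 2068, 2655 and 2484 CPM without. Heated libraries were again below all unheated ones, by a smaller factor than for asp-13. In CA1199 the heated libraries had 1586, 1575 and 1705 CPM, against 2438, 3025 and 3428 CPM in the unheated ones. In JTL621 they had 1589.7, 1532 and 1611 CPM, against 1838, 3999 and 3168 CPM. Here too the groups did not overlap, although the first unheated library was close to the heated ones. asp-1 fell to between 52.6 and 64.3% of its unheated mean over the 4 strains, and stood at 55.3 to 63.0% on ethanol. Its log2 fold change on auxin was -0.66 in CA1200 (SE 0.16, adjusted p = 0.0105), -0.85 in JTL611 (SE 0.14, adjusted p = 0.00213), -0.86 in CA1199 (SE 0.17, adjusted p = 0.00428) and -0.86 in JTL621 (SE 0.24, adjusted p = 0.0259). The call in JTL621 was lost on leaving out replicate 2 or 3 of the heated or of the unheated worms (adjusted p = 0.0571 to 0.116).

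asp-3 was called in no strain. Its heated mean on auxin was 90.2% of the unheated mean in CA1200 and 80.8% in JTL611, with 78.9% in CA1199 and 77.6% in JTL621. In CA1200 it had 901, 856 and 1088 CPM with heat shock, against 980.1, 1019.8 and 1152 CPM without, and the groups overlapped. Libraries of JTL611 had 738, 810.3 and 975 CPM with heat shock, against 868, 1125 and 1129.6 CPM without, again with overlap. In CA1199 it had 1019, 904 and 1016 CPM with heat shock, against 1059, 1271 and 1393 CPM without, and no overlap. In JTL621 it had 885, 1108 and 1003 CPM with heat shock, against 877, 1662 and 1324 CPM without. The groups overlapped there as well, and the unheated libraries were the more spread out. For asp-3 this gave a log2 fold change of -0.15 in CA1200 (95% interval -0.39 to 0.08), -0.31 in JTL611 (-0.62 to 0.01), -0.33 in CA1199 (-0.66 to -0.01) and -0.32 in JTL621 (-0.77 to 0.12), with adjusted p between 0.162 and 0.344. Without unheated replicate 1 asp-3 was called in JTL621 (log2 -0.58, adjusted p = 0.034).

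asp-4, which encodes a protease like cathepsin D, fell in CA1199 and JTL621. In CA1199 on auxin it had 188, 175 and 161 CPM with heat shock, against 265, 271 and 248 CPM without. JTL621 worms had 164, 234 and 161 CPM with heat shock, against 229, 409.6 and 264 CPM without, and 1 heated library lay within the unheated range. In CA1200 it had 173, 157 and 179 CPM with heat shock, against 187, 189 and 189 CPM without, and all heated libraries were the lower ones. JTL611 worms had 176, 174 and 179 CPM with heat shock, against 195, 221 and 193 CPM without, also apart. Heated means of asp-4 were 62.0 to 90.1% of unheated means on auxin and 66.6 to 93.7% on ethanol. For asp-4 this was a log2 fold change of -0.58 in CA1199 (SE 0.13, adjusted p = 0.0077) and -0.66 in JTL621 (SE 0.20, adjusted p = 0.0352). It was -0.15 in CA1200 (95% interval -0.30 to 0.000507, adjusted p = 0.146) and -0.20 in JTL611 (95% interval -0.42 to 0.02, adjusted p = 0.291). The call in JTL621 was lost on leaving out replicate 1 or 3 of the heated worms, or replicate 2 or 3 of the unheated ones (adjusted p = 0.0571 to 0.14).

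asp-2 and asp-6 belong with asp-5 to the abundant members that lie on chromosome V. asp-2 on auxin had 417, 383 and 555 CPM in heated CA1200 worms, against 559.9, 614 and 669.8 CPM in unheated ones. JTL611 worms had 422, 445 and 442 CPM with heat shock, against 563, 767 and 708 CPM without. The groups stood apart in both strains. In CA1199 it had 464, 407 and 409.6 CPM with heat shock, against 777, 739 and 852 CPM without. JTL621 worms had 404, 408 and 464 CPM with heat shock, against 608, 1306 and 849 CPM without. Heated libraries were below all unheated ones in all 4 strains. Heated means of asp-2 were 73.5% of unheated means in CA1200 and 64.3% in JTL611, with 54.1% in CA1199 and 46.2% in JTL621, and 54.5 to 72.5% on ethanol. On the log2 scale asp-2 stood at -0.46 in CA1200 (SE 0.14, adjusted p = 0.0312), -0.62 in JTL611 (SE 0.15, adjusted p = 0.0238), -0.89 in CA1199 (SE 0.13, adjusted p = 0.000465) and -1.04 in JTL621 (SE 0.22, adjusted p = 0.00662). In CA1200 the call was lost on leaving out replicate 1 or 2 of the heated worms, or replicate 2 or 3 of the unheated ones (adjusted p = 0.0642 to 0.12). In JTL611 it was lost without any 1 of heat-shocked replicates 1, 2 and 3 or unheated replicates 2 and 3 (adjusted p = 0.0677 to 0.113). inx-10, the innexin gene whose end overlaps asp-2, was called lower in CA1200 (log2 -0.62), JTL611 (log2 -0.54) and JTL621 (log2 -0.51) and not in CA1199 (log2 -0.45, adjusted p = 0.0945). Its part in the reads counted for asp-2 was not tested.

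asp-6 on auxin had 632, 520.2 and 743 CPM in heated CA1200 worms, against 893, 1013 and 988 CPM in unheated ones. In JTL611 it had 472, 548 and 593 CPM with heat shock, against 768, 1058 and 1045 CPM without. In both strains the groups stood apart. In CA1199 it had 666, 701 and 776 CPM with heat shock, against 1054, 1167 and 1341 CPM without. JTL621 worms had 649, 567 and 801 CPM with heat shock, against 828, 1353 and 1250.0 CPM without. The groups were apart there too, with unheated replicate 1 of JTL621 near the heated libraries. Heated means of asp-6 were 56.2 to 65.5% of unheated means over the 4 strains, and 56.5 to 62.9% on ethanol. asp-6 had a log2 fold change of -0.62 in CA1200 (SE 0.12, adjusted p = 0.00263), -0.82 in JTL611 (SE 0.20, adjusted p = 0.0285), -0.73 in CA1199 (SE 0.15, adjusted p = 0.00557) and -0.75 in JTL621 (SE 0.19, adjusted p = 0.0177). In JTL611 the call was lost without any 1 of heat-shocked replicates 1, 2 and 3 or unheated replicates 2 and 3 (adjusted p = 0.0554 to 0.119). The JTL621 call was lost on leaving out replicate 2 of either group or unheated replicate 3 (adjusted p = 0.0552 to 0.0831).

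asp-5 on auxin had 609, 504 and 526 CPM in heated CA1199 worms, against 749, 771 and 838 CPM in unheated ones. In JTL621 it had 505, 454 and 525 CPM with heat shock, against 573, 1119 and 813 CPM without. In both strains the groups did not overlap, while in CA1200 they did, with 463, 405 and 539.7 CPM with heat shock against 572, 564 and 539.3 CPM without. JTL611 worms had 374, 418 and 410.2 CPM with heat shock, against 482, 664 and 574 CPM without, apart from each other. Heated means were 59.3 to 84.1% of unheated means on auxin and 70.9 to 84.2% on ethanol. asp-5 had a log2 fold change of -0.53 in CA1199 (SE 0.13, adjusted p = 0.0133) and -0.70 in JTL621 (SE 0.19, adjusted p = 0.0227). It was -0.26 in CA1200 (95% interval -0.48 to -0.04, adjusted p = 0.0933) and -0.50 in JTL611 (95% interval -0.84 to -0.17, adjusted p = 0.0699). In CA1199 the call was lost on leaving out replicate 2 or 3 of the heated worms, or replicate 3 of the unheated ones (adjusted p = 0.0575 to 0.0657). In JTL621 it was lost on leaving out replicate 2 of either group or unheated replicate 3 (adjusted p = 0.0607 to 0.0863). It was gained in CA1200 without heat-shocked replicate 3 (adjusted p = 0.0231) and in JTL611 without unheated replicate 1 (adjusted p = 0.0498).

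asp-14, the least abundant member in unheated worms, varied most between replicates, by up to 4.53 times within an unheated group. On auxin it had 35.2, 33.7 and 35.9 CPM in heated CA1199 worms, against 51.8, 87.6 and 101 CPM in unheated ones. In JTL621 it had 29.3, 44.0 and 39.6 CPM with heat shock, against 32.7, 148 and 78.2 CPM without. The first unheated library of JTL621 lay among the heated ones. In CA1200 it had 18.8, 18.9 and 22.5 CPM with heat shock, against 22.8, 28.3 and 20.2 CPM without, with overlap. In JTL611 it had 23.9, 29.0 and 24.0 CPM with heat shock, against 32.6, 51.5 and 28.1 CPM without, where only the second heated library reached into the unheated range. Heated means were 43.6 to 84.3% of unheated means on auxin and 39.6 to 99.1% on ethanol. asp-14 fell in CA1199 (log2 -1.12, SE 0.35, adjusted p = 0.0409). It was not called in JTL621 (log2 -0.95, 95% interval -1.89 to -0.0023, adjusted p = 0.148), CA1200 (log2 -0.23, 95% interval -0.63 to 0.18) or JTL611 (log2 -0.48, 95% interval -1.05 to 0.09). The call in CA1199 was lost without any 1 library other than unheated replicate 1 (adjusted p = 0.0867 to 0.162), and asp-14 was called in JTL621 without unheated replicate 1 (log2 -1.51, adjusted p = 0.0101).

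Of the 9 other asp genes, asp-8, asp-12 and asp-17 were listed in all 4 tables and the other 6 in none of them. asp-12, which sits between asp-6 and asp-5, fell on auxin in CA1199 (log2 -0.65, SE 0.19, adjusted p = 0.0293) and JTL621 (log2 -1.19, SE 0.31, adjusted p = 0.0207). In JTL621 it had 7.51, 14.5 and 15.99 CPM with heat shock, against 20.4, 36.4 and 31.9 CPM without. asp-8 fell on auxin in CA1199, where it had 2.93, 2.82 and 2.48 CPM with heat shock and 8.91, 10.5 and 13.99 CPM without (log2 -1.68, SE 0.26, adjusted p = 0.00064). asp-17, the third of these genes and chosen for mention after its values were seen, was called in no strain, with log2 fold changes between -0.59 and -0.38 on auxin.

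Auxin moved none of the 8 genes past the threshold. The ethanol libraries, in which the fall of asp-13 was known at the choice of genes, are 1 side of these comparisons. This holds in heated and in unheated worms, so the tests are not independent of that choice. After heat shock 0 of 8 were called between auxin and ethanol plates in CA1200, JTL611, CA1199 and JTL621, where 0.0589, 0.325, 0.246 and 0.172% of all genes were called in either direction, in that order of strains. In JTL611, in which auxin acts on the degron of HSF-1 in the soma, asp-13 had 11.9, 20.2 and 14.1 CPM in heated worms on auxin, against 12.3, 30.9 and 14.3 CPM in heated worms on ethanol. These groups overlapped. There asp-13 had a log2 fold change of -0.22 (95% interval -0.82 to 0.38). Over all 8 genes and 4 strains it lay between -0.36 and 0.24, with 95% intervals that reached -0.999 and 1.06 and adjusted p of at least 0.814. In limma none had an unadjusted p under 0.05, and limma-voom on the recovered reads called 0 as well. For comparison, hsp-70 had a log2 fold change of -6.97 in heated JTL611 worms. In the authors' deposited table of the same comparison the log2 fold changes of the 8 genes lay between -0.28 and -0.04 in JTL611, between -0.29 and 0.12 in JTL621, between -0.09 and 0.17 in CA1200 and between -0.38 and 0.29 in CA1199. The smallest FDR of a member in the authors' deposited table was 0.286, for asp-5 in JTL611, and the unadjusted p in the authors' deposited table was under 0.05 for asp-5 (0.00468) and asp-1 (0.0278) in that strain.

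In unheated worms auxin also gave 0 calls among the 8 genes, beside 0.177% of all genes called in CA1200 and 0.0916% in JTL611, with 0.213% in CA1199 and 0.172% in JTL621. Log2 fold changes lay between -0.14 and 0.21, their 95% intervals reached -0.87 and 1.03, and no unadjusted p was under 0.05. The heat response on auxin minus that on ethanol takes the ethanol values known beforehand as 1 of its sides, so for the 8 genes it is a description without a test, and it lay between -0.28 and 0.10 log2 units. In limma 0% of all genes were called for this difference in CA1200, CA1199 and JTL621 and 0.2% in JTL611, among them hsp-70.

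**Figure D3:**
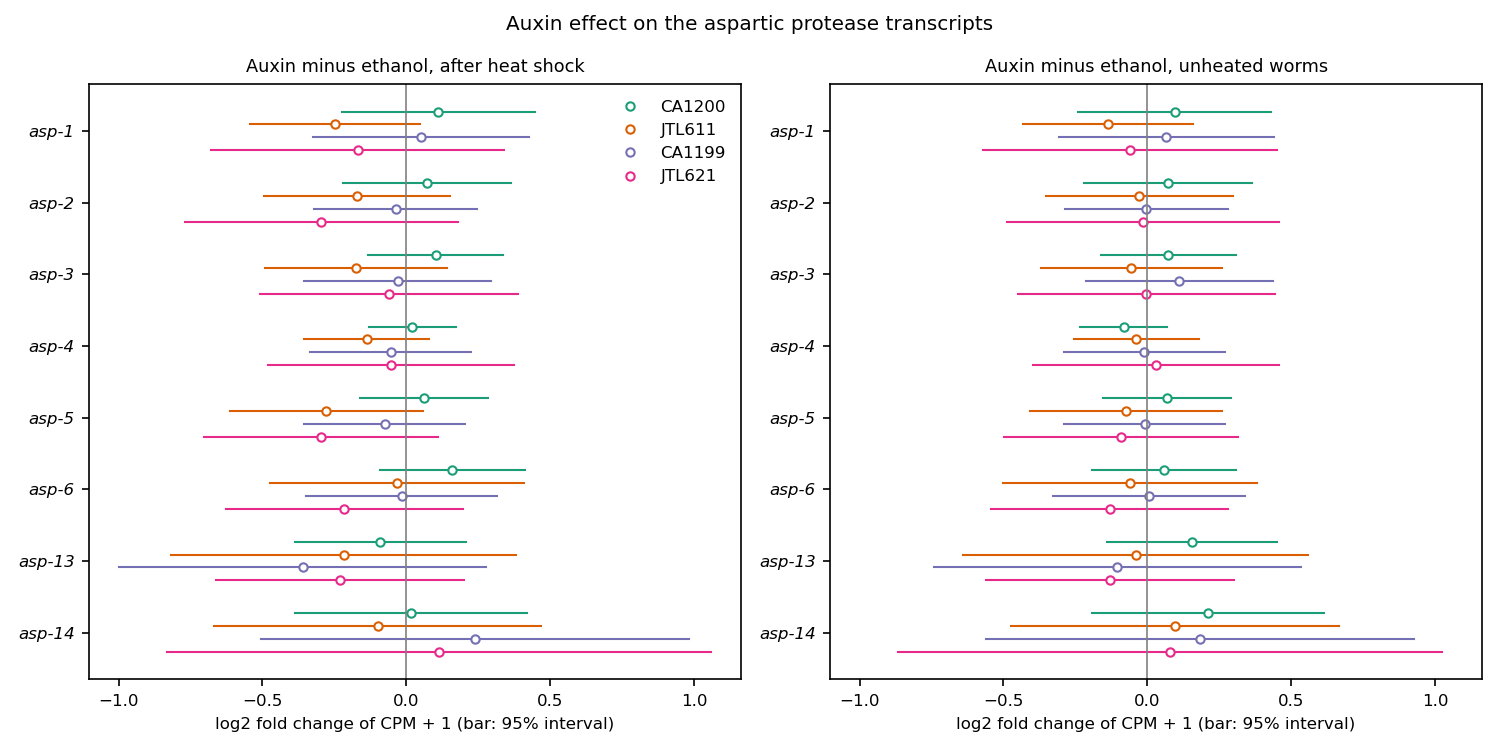
Log2 fold change of CPM + 1, auxin minus ethanol plates, in heated worms at left and unheated worms at right, for the 8 genes (rows) in 4 strains (colours). Bars are 95% intervals of the limma fit, and open points mark an adjusted p of 0.05 or more. All 64 values lie between -0.36 and 0.24.

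The spread between replicates was shared by some of the members. Over the 48 libraries, deviations from the group means went together for asp-5 and asp-2 (Pearson r = 0.88), asp-3 and asp-1 (r = 0.88) and asp-3 and asp-2 (r = 0.87), and hardly at all for asp-6 and asp-4 (r = 0.09). These are descriptions over libraries that share their depth and handling. Among the 8 unheated groups, the library with replicate number 1 was the lowest in 8 for asp-1, asp-3 and asp-6, in 7 for asp-2 and asp-5, in 6 for asp-13 and asp-14 and in 3 for asp-4. The labels do not say what a replicate number marks.

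For each member the genes of most similar pattern were taken from the 11673 genes tested in all strains, by Pearson correlation over the 48 libraries after centring each strain, so that the shared heat treatment enters. The closest to asp-13 were F02D8.4 (r = 0.98), T01D3.6 (r = 0.97) and rhr-1, which encodes a Rhesus-family ammonium transporter (r = 0.97). These fell on auxin with heat by less than asp-13, with log2 fold changes in CA1200 of -1.84 for F02D8.4, -1.67 for T01D3.6 and -1.18 for rhr-1. Closest to asp-1 were act-5, the actin of intestinal microvilli (r = 0.96), asp-6 (r = 0.96) and ida-1, a dense core vesicle protein of neurons (r = 0.95). Closest to asp-2 were dsc-4, which encodes a microsomal triglyceride transfer protein subunit (r = 0.97), F13B6.3 (r = 0.96) and F35E12.6 (r = 0.96). asp-5 was closest to the C-type lectin gene clec-83 (r = 0.95), asp-2 (r = 0.95) and nspg-10 (r = 0.94), and asp-6 to asp-1 (r = 0.96), C01B10.6 (r = 0.94) and C12D12.1 (r = 0.93). asp-3 was closest to T21H3.1 (r = 0.93), clec-63 (r = 0.92) and ifc-1, an intermediate filament gene (r = 0.90). asp-4 was closest to the transthyretin-related gene ttr-46 (r = 0.93), ZK899.2 (r = 0.91) and lron-7 (r = 0.91). asp-14 had the weakest matches, the galectin gene lec-10 (r = 0.90), irg-8 (r = 0.89) and dod-24 (r = 0.89).

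Counts of other lysosomal genes called lower on auxin stand beside shares over all genes of 9.86% in CA1200 and 5.4% in JTL611, with 12.5% in CA1199 and 11.3% in JTL621. Of 10 cysteine cathepsin genes, whose products share the lysosome with the aspartic ones, 4 in CA1200 were called lower on auxin plates (list median -0.28 log2 units), 1 in JTL611 (-0.21), 6 in CA1199 (-0.50) and 2 in JTL621 (-0.35). The single gene in JTL611 and the pair in JTL621 are near the shares over all genes. The cathepsin B-like genes cpr-8 (log2 -0.96 in JTL611, SE 0.16, adjusted p = 0.00329) and cpr-9 (log2 -0.56 in JTL621, SE 0.10, adjusted p = 0.00165) were among them. Of lysosome membrane and hydrolase genes, 2 of 17 in CA1200, 2 of 17 in JTL611, 8 of 20 in CA1199 and 6 of 18 in JTL621 were called lower, with list medians between -0.43 and -0.20. The counts in CA1200 and JTL611 are near the shares over all genes. lmp-1, a lysosome-associated membrane protein, fell in CA1199 (log2 -0.53, SE 0.12, adjusted p = 0.00755), and so did its relative lmp-2 (log2 -0.77, SE 0.16, adjusted p = 0.00553). Whether these shares differ from that of the aspartic proteases was not tested.

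The vacuolar proton pump, which acidifies the lysosome, had 2 of 21 subunit genes called lower on auxin in CA1200 and 8 in JTL611, with 11 in CA1199 and 13 in JTL621. List medians lay between -0.50 and -0.12, and the count in CA1200 is at the share over all genes, 9.86%. vha-3, a proteolipid subunit, fell in all 4 strains, with log2 fold changes between -1.06 in JTL621 and -0.49 in CA1200. vha-19, an accessory subunit, had log2 fold changes of -0.39 in CA1200 and -0.76 in JTL621, both called. Of 6 genes that act before asp-3 and asp-4 in necrosis, the IP3 receptor gene itr-1 alone was called lower, in each of the 4 strains, with log2 fold changes between -1.29 in JTL621 and -0.55 in CA1200. Medians of these 6 genes lay between -0.14 in JTL621 and 0.09 in CA1200. A count of 1 of 6 is near the shares over all genes in CA1199 (12.5%) and JTL621 (11.3%). clp-1, a calpain gene, rose in CA1200 (log2 0.20, SE 0.07, adjusted p = 0.0472), where 9.57% of all genes were called higher. No member of these lists other than clp-1 was called higher on auxin.

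**Figure D4:**
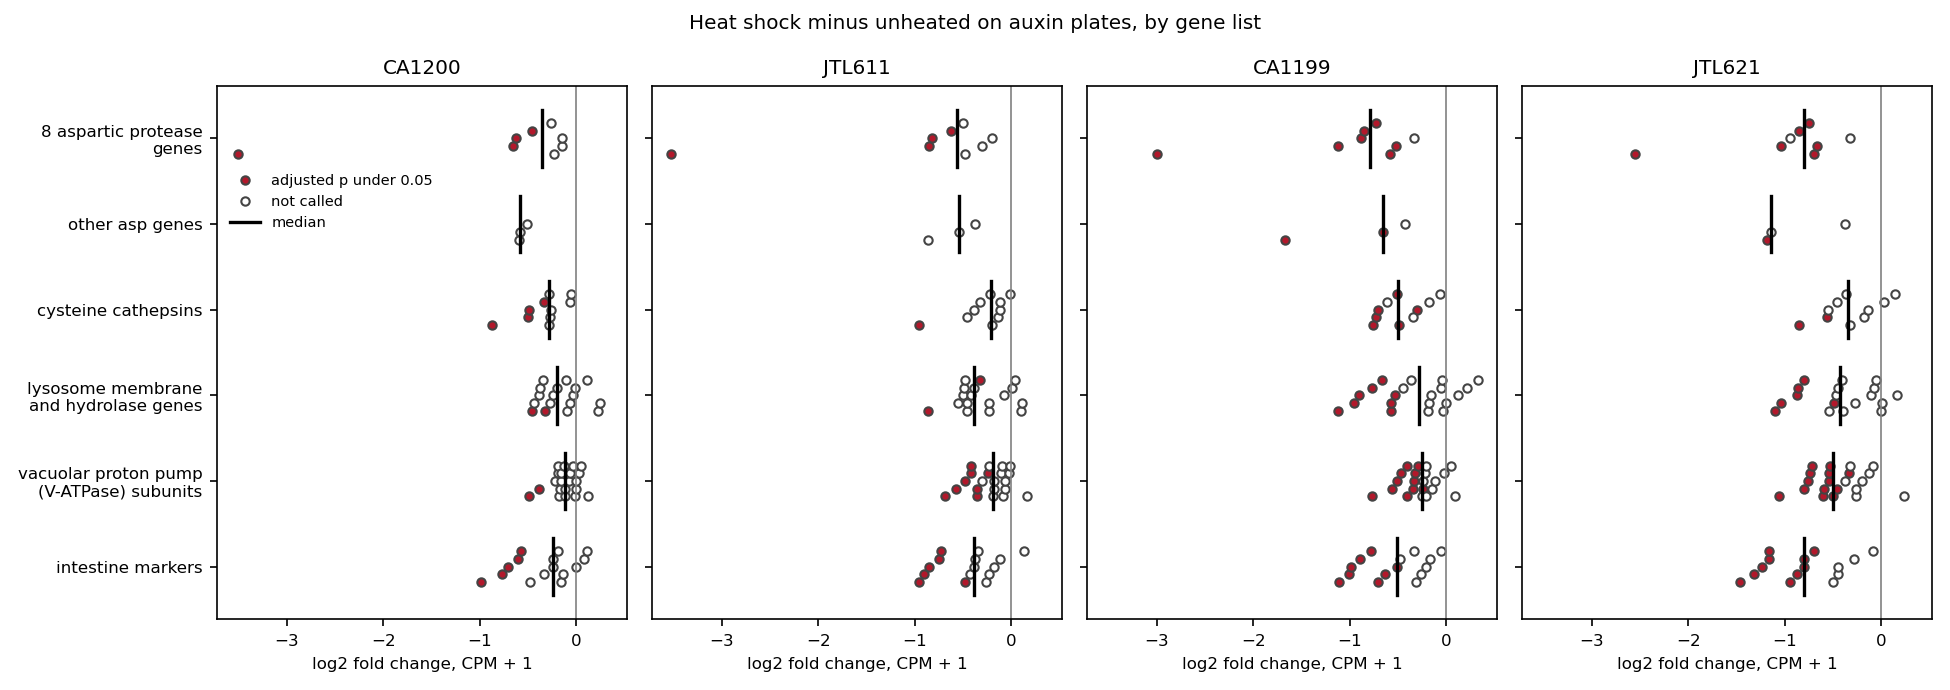
Log2 fold change of CPM + 1, heat shock minus unheated on auxin plates, for genes of 6 lists (rows) in 4 strains (panels). Points are genes, filled where the adjusted p is under 0.05, and black bars are list medians. The 8 aspartic proteases have medians from -0.80 to -0.36, and asp-13 is the point farthest to the left in each panel.

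Markers of the intestine moved in the same direction. On auxin plates 5 of 15 intestinal markers in CA1200 and 6 in JTL611 were called lower, and 8 in CA1199 and 10 in JTL621, with list medians of -0.25, -0.39, -0.51 and -0.80 in that order of strains. Their summed level was 1214 to 1698 CPM in heated and 1794 to 2043 CPM in unheated CA1200 worms. In JTL611 the sum was 1268 to 1422 CPM with heat shock and 1771 to 2153 CPM without. CA1199 worms had 1211 to 1480.1 CPM with heat shock and 1869 to 2059 CPM without. JTL621 worms had 1161 to 1330.0 CPM with heat shock and 1634 to 3099 CPM without. None of the 15 markers was at 0 in any group. pho-1, an intestinal acid phosphatase, had log2 fold changes of -0.61 in CA1200 and -1.32 in JTL621, and pept-1, the intestinal peptide transporter, of -0.77 in CA1200 and -1.47 in JTL621, all called. Of 6 vitellogenin genes, yolk proteins made in the intestine, 0 were called lower in CA1200 and JTL611, 1 in CA1199 (vit-1, log2 -0.53) and 3 in JTL621, with list medians between -0.83 and -0.08. The single vitellogenin gene in CA1199 is near the share over all genes. The part of the intestine in the lower protease transcripts was not tested. On ethanol plates the marker sum was 1270.8 to 1338 CPM in heated and 1595 to 1883 CPM in unheated CA1200 worms, and in each other strain the heated and unheated ranges did not overlap either.

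Other tissues moved in both directions on auxin plates. Counts called higher stand beside shares over all genes of 9.57% for CA1200 and 2.24% for JTL611. The share called higher was 3.83% for CA1199, while JTL621 had 6.22%. Neuron markers were called lower in 5 of 8 in CA1200 and 4 of 8 in each other strain, among them ida-1 and rab-3, with list medians between -0.57 and -0.49. Their summed level was 169 to 173 CPM in heated and 212 to 213 CPM in unheated CA1200 worms, and 175 to 214 CPM in heated and 197 to 295 CPM in unheated JTL621 worms. Pharynx markers were called higher in 4 of 5 in CA1200 and 1 in JTL611, with 4 in CA1199 and 5 in JTL621. List medians lay between 1.05 and 1.56, with myo-1, a pharyngeal myosin, at 2.63 log2 units in CA1200. The summed level of 5 listed pharynx markers was 171 to 399.97 CPM in heated and 46.6 to 71.5 CPM in unheated CA1200 worms. The collagen gene bli-1 was the only epidermis marker called, and it was higher in all 4 strains. Of 5 body wall muscle markers 1 was called higher in CA1200, 3 in CA1199 and 0 in the other strains, with list medians between 0.31 and 0.66. Of 2 coelomocyte markers, cup-4 was called lower in CA1200, CA1199 and JTL621. The other, unc-122, was called in no strain and did not pass the filter on low values in CA1199 and JTL621. Both were low, with a sum of 5.93 to 7.31 CPM in heated and 9.09 to 11.6 CPM in unheated CA1200 worms. Of 7 germline markers 2 were called higher in CA1200 and 1 lower in JTL611 (glh-1, log2 -0.33), with list medians between -0.07 and 0.12. The single muscle marker in CA1200 and the single germline marker in JTL611 are near the shares over all genes. The part of these tissues in the values of the aspartic proteases was not tested.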

How the data were processed

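Per the submitters' processing notes, the authors used STAR, featureCounts and edgeR, with the builds WBcel235 and ce11 and no versions given. The authors deposited for each strain normalised log2 values per library, and a comparison of heated worms on auxin with heated worms on ethanol, with log2 fold changes, a score (the likelihood ratio) and p-values, per the file headers. The deposited log2 values were returned to CPM by subtracting each table's offset (0.116 to 0.119 CPM). All values (100%) then came within 0.05 of whole reads. Each table was normalised separately by the authors.

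Within each strain, genes that averaged 1 CPM or more in its 12 libraries were fitted in limma 3.58.1 (R 4.3.3, trend) on log2(CPM + 1), with group means and two-sided tests. P-values were adjusted by Benjamini-Hochberg over all genes tested, and calls took an adjusted p under 0.05. The scale understates fold changes of low genes. Intervals cover 95%. The scripts were tested on simulated data. Gene positions came from Ensembl release 115. The members and gene lists were chosen with earlier results of these data known, so tests on auxin and list counts may not be free of that choice. Named genes were the members, called asp genes, up to 2 members of each list called most often, and the 3 genes most like each member.

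The labels number replicates but do not say whether these are separate cultures, so p-values measure only the spread between these samples, which may be technical. Same-numbered libraries deviated together, with every correlation over 0.1, in the heat comparisons of CA1200 (0.127 to 0.305) and JTL611 (0.237 to 0.569), on auxin in CA1199 (0.175 to 0.498), on ethanol in JTL621 (0.128 to 0.308), in both auxin comparisons of CA1200 (0.115 to 0.448) and in unheated auxin comparisons of JTL611 (0.306 to 0.664) and JTL621 (0.102 to 0.575); this comes from the values, not the labels. Alternatives were the deposited scale, no filter, quantile normalisation, limma-voom on the recovered reads, a replicate block and leaving out each library.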

Additional observations from a re-analysis of the deposited data

How the results depend on the processing

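Among the values of single genes under the alternatives, 694 kept their direction and side of the threshold, 67 lost a call, 21 gained one and 10 changed sign. These values were the heat responses of all 8 genes on both kinds of plate and the auxin effects on asp-13. Auxin effects on the other members were not in this tally. Counts for heat on ethanol rest on values known at the choice of genes and are no tests. Quantile normalisation gave 6 called genes for heat on ethanol in JTL621, as did the replicate block, and the block gave 5 in JTL611. Without 1 library the counts called for heat on ethanol ranged over 2 to 5 in CA1200, 2 to 4 in JTL611, 4 to 7 in CA1199 and 1 to 2 in JTL621. For heat on auxin they ranged over 3 to 5 in CA1200, 2 to 5 in JTL611, 5 to 7 in CA1199 and 2 to 8 in JTL621. Changes of sign came only from leaving out libraries. The log2 fold change for heat on ethanol then spanned -0.26 to 0.12 for asp-14 in CA1200 and -0.19 to 0.011 for asp-4 in JTL611. That for auxin of asp-13 spanned -0.46 to 0.17 in heated JTL611 worms. In unheated worms it spanned -0.026 to 0.30 in CA1200, -0.13 to 0.051 in JTL611, -0.19 to 0.026 in CA1199 and -0.39 to 0.043 in JTL621. The cause was not tested. The fall of asp-13 on auxin was called in all 4 strains under every alternative run. In JTL621 on auxin the correlations of same-numbered libraries were 0.0955 to 0.121, 1 of 3 under the limit of 0.1 for pairing, and 6 of 6 libraries correlated best with their own number. The replicate block gave 7 called genes there, against 6, with asp-14 added (adjusted p = 0.0245). The block changed no other call beyond those counted here and given with the results. The number of replicates, 3 per group, limits the precision for genes with small changes, whereas the depth leaves all 8 genes far above 3 reads.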
